A study of Homo sapiens with 4 samples.

Results

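The p53 target genes are genes that the transcription factor p53 is known to switch on after DNA damage and other stress. A list of 38 of them was taken by symbol, and 35 had a probe set that names them alone, out of 17958 genes measured. They were followed in HCT116, an established line from a human colorectal carcinoma, in which p53 is wild type. Treated and control cells were compared on Affymetrix arrays of total RNA. The treated group (2 arrays, 5aza replicates 1 and 2) received 5-aza-2'-deoxycytidine, also called decitabine, at 1 µM, first given 24 hours after seeding and again 48 hours after that first dose. The control group (2 arrays, vehicle replicates 1 and 2) received vehicle, and RNA of both groups was taken 72 hours after the first dose. All cells were of the same line, and the labels do not say whether replicates were separate cultures. P-values therefore measure only the spread between these arrays, which may be technical.

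In resting cells p53 is kept low by the ubiquitin ligase MDM2. When DNA is damaged, checkpoint kinases free p53 from this control, and it binds response elements near its targets. The targets halt the cell cycle, repair DNA, adjust metabolism, prepare cell death or send signals through receptors and secreted ligands, and some of them, MDM2 among them, switch p53 off again. Decitabine is built into DNA in place of cytosine, where it traps DNA methyltransferases, so that methylation of CpG sites is lost as cells divide.

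The promoters of these genes were read in RefSeq's table for assembly GRCh38.p14, which gives 300 bases at each annotated start and matched 30 of the 35 measured targets, all but FBXO22, GADD45A, PHLDA3, RRM2B and TP53INP1. The p53 decamer consensus, the unit that occurs as a pair in a full response element and reads the same on both strands, was found in 8 of 49 windows of the targets (16.3%), against 6.63% of all 35116 windows in the table. These matches are shown first because they are the motif that p53 itself binds. Capitals mark the decamer, and the lower case letters around it are the neighbouring bases on the gene's strand.
PLK2: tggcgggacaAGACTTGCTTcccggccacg
AEN: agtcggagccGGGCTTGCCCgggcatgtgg
FAS: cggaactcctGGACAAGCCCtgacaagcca
DDB2: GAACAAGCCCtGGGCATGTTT
RPS27L: ggcctagagcAGACAAGCCCgccccgccgc
SESN1: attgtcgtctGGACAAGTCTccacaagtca
EI24: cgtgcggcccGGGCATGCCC
ABCA12: agagaatgtaGGACAAGTCCtactggcctt
They lie at chr5:58460199-58460228 on the minus strand (PLK2), chr15:88621296-88621325 on the plus strand (AEN), chr10:88991299-88991328 on the plus strand (FAS) and chr11:47214979-47214999 on the plus strand (DDB2). The remaining matches lie at chr15:63157517-63157546 on the minus strand (RPS27L), chr6:109009018-109009047 on the minus strand (SESN1), chr11:125569457-125569476 on the plus strand (EI24) and chr2:215138689-215138718 on the minus strand (ABCA12). DDB2 was the gene of this set with 2 decamers in tandem, 1 base apart. They begin 5 and 16 bases after start 2 of that gene, with starts numbered from the most upstream. The matches of FAS and SESN1 lie at start 3, and those of the other genes at the most upstream start. A match is a description of these letters and not a measured binding site, and many response elements of these genes lie outside the windows. Only exact matches to the consensus were counted, so a decamer that departs from it was missed even inside a window.

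Treated cells had higher transcript levels of many p53 targets, mostly by modest folds. Of the 35 measured, 16 rose and 1 fell in limma's test at an adjusted p under 0.05, and 18 were not called. The 17 calls amounted to 48.6% of the targets, against 28.0% of all genes. The rises made up 45.7% of the targets, against 12.4% of all 17958 genes, and the single fall 2.86%, against 15.6% of all genes. This list, and one of 52 further established targets, were chosen with earlier results of these data known. Of those 52, 10 rose (19.2%) and 6 fell (11.5%). Rises ran from 1.30-fold to 4.0-fold, and 4 of the 16 reached 2-fold. The median log2 fold change of the 35 genes was 0.26, against -0.07 for all genes. Both 5aza arrays lay above both vehicle arrays for 20 targets (57.1%), against 26.3% of all genes, and below them for 5, against 39.5% of all genes. The groups were thus apart for 25 targets (71.4%), against 65.8% of all genes, and overlapped for 10.

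The targets were on the whole bright, with a median vehicle level of 8.86 on the log2 scale against 7.14 for all genes. Among the 31 targets above the median level of all genes, 14 rose (45.2%) and 1 fell, against 9.63% and 20.7% of all genes in that range. The number of rises was sensitive to losing a vehicle array, among the targets and among all genes. Leaving out an array leaves 1 array in its group, so effect sizes are given here. Without vehicle replicate 1 the median log2 fold change of the targets was 0.40, against -0.08 for all genes. Without vehicle replicate 2 it was 0.26, against -0.06. It was 0.11 without 5aza replicate 1, against -0.06, and 0.37 without 5aza replicate 2, against -0.08. PLK2, TIGAR, SPATA18, TP53INP1 and EDA2R were called as higher, and KITLG as lower, in each of those fits.

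**Figure D1:**
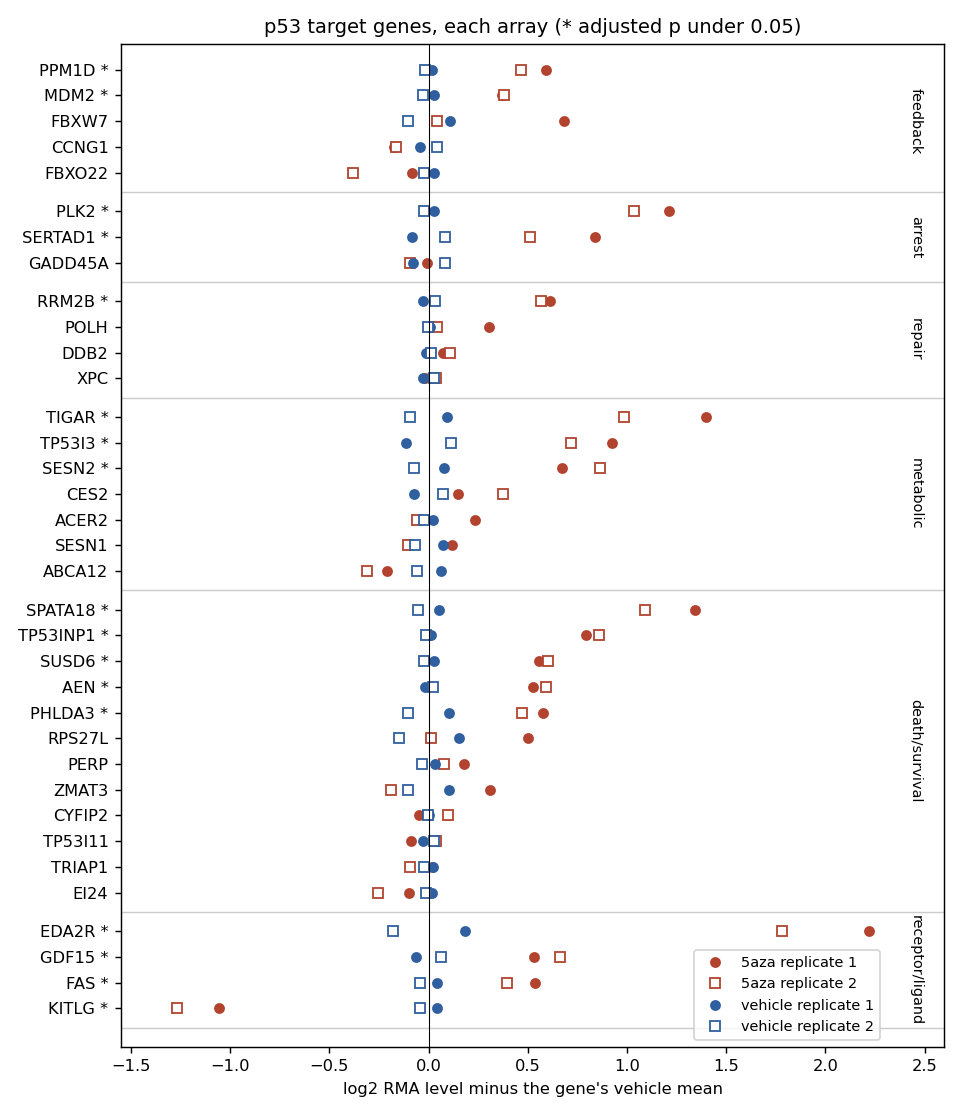
Each row is a p53 target and each point 1 array, as the log2 RMA level minus the gene's own vehicle mean, with genes grouped by role and 5aza arrays in red, vehicle arrays in blue. The 5aza points of the 16 genes that rose lie to the right of both vehicle points, by 0.34 or more between the nearest arrays, and those of KITLG lie to the left.

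Among the feedback regulators, which restrain p53, and the ubiquitin ligase subunits, 2 of 5 genes rose and the other 3 were not called (median log2 fold change 0.36). PPM1D encodes the phosphatase WIP1, which removes activating phosphates from p53 and from the kinases above it. It had levels of 11.21 and 11.08 in 5aza arrays, against 10.63 and 10.59 in vehicle arrays. The groups were well apart relative to their spread, and the gene rose 1.44-fold (log2 fold change 0.53, SE 0.12, adjusted p = 0.0168). MDM2 had levels of 11.91 and 11.92 in 5aza arrays, against 11.57 and 11.51 in vehicle arrays. The arrays did not overlap, and the rise was 1.30-fold (log2 fold change 0.37, SE 0.11, adjusted p = 0.0490), the smallest of the 16. MDM2 was the only called target that lost its call in each of the 4 fits with 1 array left out, with adjusted p up to 0.316, and PPM1D lost it without either vehicle array (adjusted p up to 0.136).

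FBXW7, a substrate receptor that sends cyclin E and MYC to destruction, had levels of 8.21 and 7.56 in 5aza arrays, against 7.63 and 7.41 in vehicle arrays. Its 5aza arrays differed by 0.64, the widest gap between replicates among the 35 targets, and the second of them fell between the vehicle arrays. It was not called with all arrays (log2 fold change 0.36, SE 0.21, adjusted p = 0.260), and was called without 5aza replicate 2 (log2 fold change 0.68, adjusted p = 0.0174). Cyclin G1, encoded by CCNG1, takes part in the feedback loop by bringing a phosphatase to MDM2. CCNG1 had levels of 11.84 and 11.85 in 5aza arrays, against 11.97 and 12.05 in vehicle arrays, a log2 fold change of -0.17 (95% interval -0.44 to 0.10). For FBXO22, an F-box protein, the log2 fold change was -0.23 (interval -0.56 to 0.10). Neither was called, although both 5aza arrays lay below both vehicle arrays for each.

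Of the 3 measured genes of cell cycle arrest and growth control, 2 rose and 1 was not called (median log2 fold change 0.67). PLK2, a polo-like kinase of the p53 response whose promoter decamer is printed above, had levels of 11.16 and 10.98 in 5aza arrays, against 9.98 and 9.93 in vehicle arrays. The groups were separated by 1.01 between their nearest arrays, and PLK2 rose 2.18-fold (log2 fold change 1.12, SE 0.12, adjusted p = 0.000987). SERTAD1, a cofactor that binds the kinase CDK4, had levels of 10.09 and 9.76 in 5aza arrays, against 9.17 and 9.33 in vehicle arrays. It rose 1.6-fold (log2 fold change 0.67, SE 0.15, adjusted p = 0.0164) and was not called without vehicle replicate 1 (adjusted p = 0.114). GADD45A, a growth arrest gene induced by DNA damage, gave levels of 8.72 and 8.63 in 5aza arrays, against 8.65 and 8.81 in vehicle arrays. Its arrays overlapped, and the log2 fold change was -0.05 with an interval of -0.34 to 0.24, which leaves out any rise of the size seen for PLK2. BTG2 and PLK3 were not analysed here; the probe sets that name PLK3 also name DYNLT4.

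In the repair class 1 of 4 genes rose and 3 were not called (median log2 fold change 0.13). RRM2B, the p53-induced small subunit of ribonucleotide reductase that supplies deoxynucleotides for repair, had levels of 10.65 and 10.60 in 5aza arrays, against 10.01 and 10.07 in vehicle arrays. It rose 1.5-fold (log2 fold change 0.59, SE 0.11, adjusted p = 0.00986), and lost its call without either vehicle array (adjusted p up to 0.102). The other members act directly on lesions. DDB2, which finds ultraviolet lesions and carries the tandem decamers shown above, had levels of 10.11 and 10.14 in 5aza arrays, against 10.02 and 10.05 in vehicle arrays. These groups did not overlap, but they differed by 0.09 on the log2 scale (interval -0.18 to 0.36, adjusted p = 0.600). XPC, the damage sensor of nucleotide excision repair, had a log2 fold change of 0.01 (interval -0.26 to 0.28). POLH, the translesion polymerase eta, had one of 0.17 (interval -0.14 to 0.49).

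Of 7 measured metabolic targets 3 rose and 4 were not called (median log2 fold change 0.26). TIGAR, a bisphosphatase that lowers glycolytic flux, had levels of 9.80 and 9.39 in 5aza arrays, against 8.50 and 8.31 in vehicle arrays. The 5aza arrays differed from each other by less than from any vehicle array, and TIGAR rose 2.28-fold (log2 fold change 1.19, SE 0.17, adjusted p = 0.00277). TP53I3, a quinone oxidoreductase, had levels of 9.13 and 8.92 in 5aza arrays, against 8.09 and 8.32 in vehicle arrays. It rose 1.77-fold (log2 fold change 0.82, SE 0.14, adjusted p = 0.00612) and was not called without vehicle replicate 1 (adjusted p = 0.0519).

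The sestrins, stress proteins that restrain growth signaling by mTOR, differed from each other in their values. SESN2 had levels of 8.58 and 8.77 in 5aza arrays, against 7.98 and 7.83 in vehicle arrays. It rose 1.70-fold (log2 fold change 0.77, interval 0.46 to 1.08, adjusted p = 0.00602), with an adjusted p of 0.0533 without vehicle replicate 2. SESN1 had levels of 8.41 and 8.19 in 5aza arrays, against 8.37 and 8.22 in vehicle arrays. Its groups overlapped and its log2 fold change was 0.01 (interval -0.31 to 0.32), so that the intervals of the paralogs did not meet, and the difference itself was not tested. The decamer found in the set of sestrin windows was in SESN1, the gene that was not called. It lay at start 3 of SESN1 and not at the most upstream one, while SESN2 had only 1 window to search. CES2, a carboxylesterase, had a log2 fold change of 0.26 (interval -0.06 to 0.58), and ACER2, an alkaline ceramidase, one of 0.09 (interval -0.24 to 0.41). ABCA12, a lipid transporter of keratinocytes, was dim in all arrays, with levels of 4.92 and 4.82 in 5aza arrays, against 5.19 and 5.07 in vehicle arrays. It was not called (log2 fold change -0.26, adjusted p = 0.155), though it was called as lower after quantile normalization was repeated. FDXR was not analysed here.

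The class of cell death, survival and mitochondrial quality held 12 genes, of which 5 rose and 7 were not called (median log2 fold change 0.19). SPATA18, also known as MIEAP and linked to the clearance of damaged mitochondrial proteins, had levels of 7.03 and 6.78 in 5aza arrays, against 5.74 and 5.63 in vehicle arrays. It rose 2.33-fold (log2 fold change 1.22, SE 0.13, adjusted p = 0.00103), the largest change of its class. TP53INP1, a stress protein that promotes autophagy and p53 phosphorylation, had levels of 9.91 and 9.97 in 5aza arrays, against 9.13 and 9.10 in vehicle arrays. Replicates of each group lay close together, and TP53INP1 rose 1.78-fold (log2 fold change 0.83, SE 0.11, adjusted p = 0.00261).

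The remaining rises of the class were near 1.5-fold. SUSD6, a membrane protein with a sushi domain, had levels of 7.99 and 8.03 in 5aza arrays, against 7.46 and 7.41 in vehicle arrays (log2 fold change 0.58, SE 0.11, adjusted p = 0.0105). AEN, an apoptosis-linked nuclease whose promoter decamer is printed above, had levels of 9.38 and 9.45 in 5aza arrays, against 8.84 and 8.88 in vehicle arrays (log2 fold change 0.56, SE 0.11, adjusted p = 0.0121). PHLDA3, a repressor of the survival kinase AKT, had levels of 8.06 and 7.96 in 5aza arrays, against 7.59 and 7.38 in vehicle arrays (log2 fold change 0.52, SE 0.13, adjusted p = 0.0238). Each of these 3 genes separated the groups and each lost its call without either vehicle array, with adjusted p up to 0.102 for SUSD6, 0.115 for AEN and 0.216 for PHLDA3.

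The 7 genes of this class that were not called had log2 fold changes between -0.18 and 0.26. RPS27L, a ribosomal protein paralog with a promoter decamer, had levels of 7.99 and 7.50 in 5aza arrays, against 7.64 and 7.34 in vehicle arrays, so each group's own spread was wider than the difference of 0.26 between their means. ZMAT3, an RNA-binding zinc finger protein, varied likewise, with 9.40 and 8.90 in 5aza arrays, against 9.20 and 8.99 in vehicle arrays. PERP, a tetraspan membrane protein of desmosomes, had a log2 fold change of 0.13. CYFIP2, a subunit of the actin-regulating WAVE complex, had one of 0.02. TP53I11 had a log2 fold change of -0.03, and TRIAP1, a mitochondrial protein that opposes apoptosis, one of -0.04. EI24, an endoplasmic reticulum protein of autophagy, had the lowest value, -0.18 (interval -0.46 to 0.11).

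Receptors and secreted ligands held both extremes of the set: 3 rose, 1 fell and each of the 4 was called. EDA2R, the TNF receptor family member that binds ectodysplasin, had levels of 6.66 and 6.22 in 5aza arrays, against 4.62 and 4.26 in vehicle arrays. The gap between the nearest arrays was 1.6, and EDA2R rose 4.0-fold (log2 fold change 2.00, SE 0.19, adjusted p = 0.000534). Its vehicle levels were low on this scale, and without detection calls it was not determined whether they lay above background, so the fold is that of this scale. FAS, the death receptor, had levels of 9.15 and 9.01 in 5aza arrays, against 8.66 and 8.57 in vehicle arrays. It rose 1.38-fold (log2 fold change 0.47, SE 0.12, adjusted p = 0.0285) and lost its call without either vehicle array and without 5aza replicate 1 (adjusted p up to 0.215).

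GDF15, a stress-induced secreted cytokine, had levels of 12.95 and 13.08 in 5aza arrays, against 12.36 and 12.48 in vehicle arrays. It rose 1.51-fold (log2 fold change 0.60, SE 0.12, adjusted p = 0.0123), and lost its call without either vehicle array (adjusted p up to 0.122). KITLG, the ligand of the receptor tyrosine kinase KIT, moved the other way. KITLG had levels of 10.81 and 10.60 in 5aza arrays, against 11.91 and 11.83 in vehicle arrays. The groups were 1.01 apart at their nearest arrays, and KITLG fell by 1.16 on the log2 scale (2.24-fold lower, SE 0.13, adjusted p = 0.00103). The size of this fall was close to that of the rises of PLK2 and TIGAR.

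**Figure D2:**
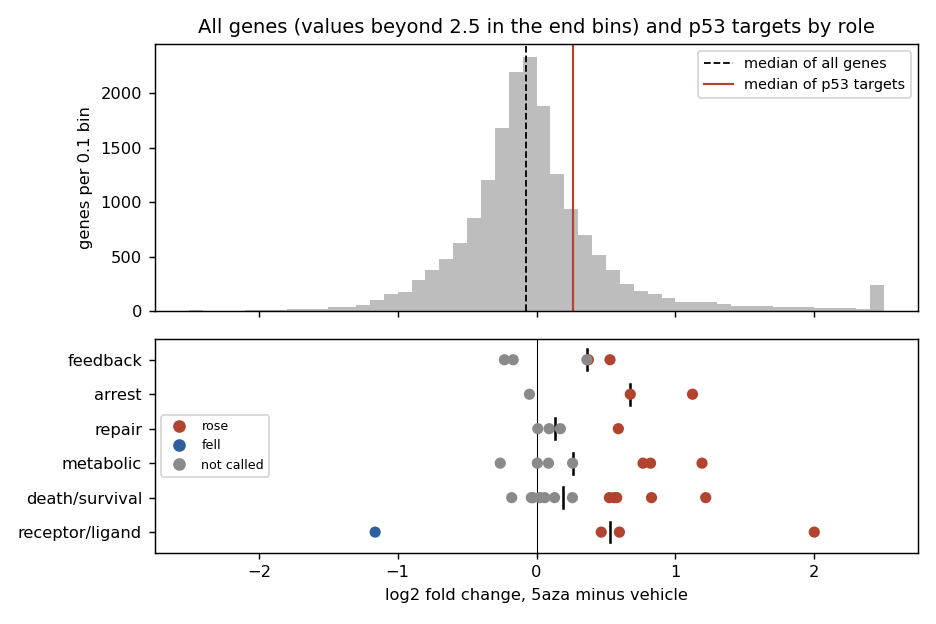
The upper panel is a histogram of log2 fold changes (5aza minus vehicle) of all 17958 genes, and the lower panel shows each p53 target by role, with black bars at class medians and colours for genes that rose, fell or were not called. The median of the targets, 0.26, lies to the right of that of all genes, -0.07, and receptors and ligands span the widest range, from -1.16 to 2.00.

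By class, the share of rises was 2 of 5 feedback genes, 2 of 3 genes of arrest and growth control and 1 of 4 repair genes. It was 3 of 7 metabolic genes, 5 of 12 death and survival genes and 3 of 4 receptors and ligands. The background is 12.4% rises among all genes. Class sizes are small and no test between classes was made, so these counts do not order the classes. Within every class of this division except the receptors and ligands, genes that rose stood beside genes whose 95% interval included 0. The 18 targets that were not called had log2 fold changes no larger than 0.36 in size. The calls among the smaller rises depended on keeping both vehicle arrays, as the plot with each array left out shows. PPM1D had a log2 fold change of 0.55 without vehicle replicate 1 and 0.51 without vehicle replicate 2, against 0.53 with all arrays. For PHLDA3 these values were 0.63 and 0.42, against 0.52. The SE of both genes was larger in the fits without a vehicle array.

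**Figure D3:**
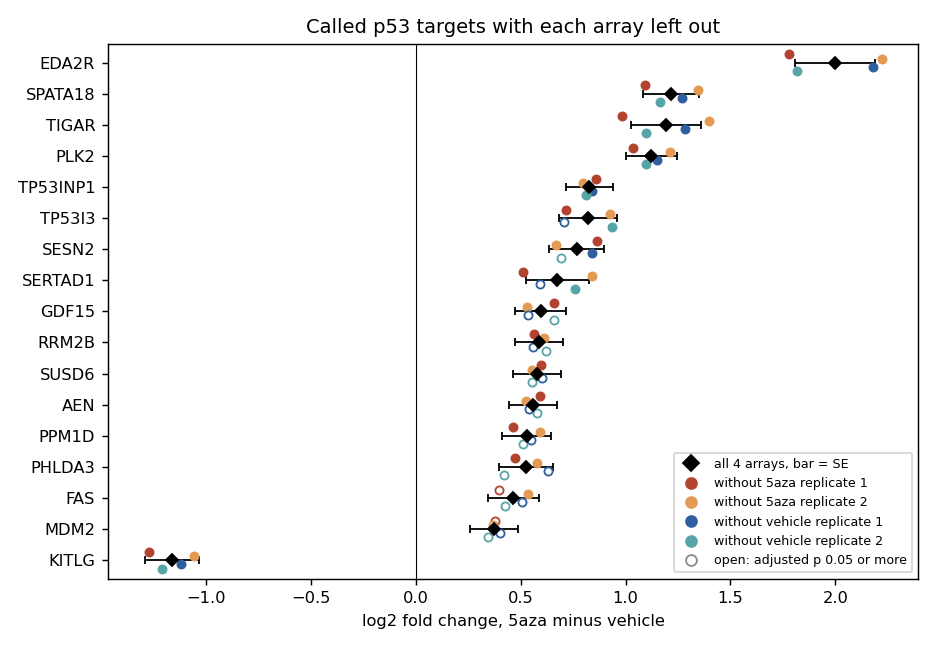
Black diamonds give the log2 fold change (5aza minus vehicle) of each called p53 target from all 4 arrays with its standard error, and coloured circles give the value with 1 array left out, open where the adjusted p was 0.05 or more. All circles stay on the same side of 0 as their diamond, and open circles occur from TP53I3 (0.82) downward to MDM2 (0.37).

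Replicates of the targets were about as close as those of other genes. The median absolute difference was 0.15 between the 5aza arrays and 0.08 between the vehicle arrays, against 0.17 and 0.11 over all genes. 5aza replicate 1 was above 5aza replicate 2 for 23 of 35 targets (65.7%), against 51.1% of all genes, and vehicle replicate 1 above vehicle replicate 2 for 24 (68.6%), against 47.3%. The mean level of the 35 targets was 9.35 and 9.22 in 5aza arrays, against 8.96 and 8.91 in vehicle arrays, so the difference between groups was wider than that within either.

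The promoters of the targets were richer in CpG than the table as a whole. At the most upstream start, the 30 matched targets had a median of 29.5 CpG dinucleotides in 300 bases, against 14 for all windows (over all 49 windows of the targets the median was 25). The 13 of them that rose had a median of 25 (range 8 to 43), against 30.5 for the 16 that were not called (range 1 to 43), with no test made. The largest rises came from unlike promoters: EDA2R had 8 CpG, SPATA18 18, PLK2 40 and TIGAR 43, while KITLG, which fell, had 34. For comparison, the 250 bases before the most upstream start are printed for 4 of these genes, on the gene's strand, with each CpG in capitals.
EDA2R: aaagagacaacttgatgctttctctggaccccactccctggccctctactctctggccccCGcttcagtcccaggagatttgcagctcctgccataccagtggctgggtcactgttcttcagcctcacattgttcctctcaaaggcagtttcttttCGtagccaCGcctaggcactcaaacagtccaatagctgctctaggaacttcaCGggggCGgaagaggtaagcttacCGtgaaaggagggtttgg
SPATA18: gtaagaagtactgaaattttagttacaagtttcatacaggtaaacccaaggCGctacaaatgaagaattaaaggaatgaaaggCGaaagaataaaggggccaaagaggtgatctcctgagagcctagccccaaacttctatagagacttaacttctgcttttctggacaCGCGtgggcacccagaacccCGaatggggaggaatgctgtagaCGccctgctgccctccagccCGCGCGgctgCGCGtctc
PLK2: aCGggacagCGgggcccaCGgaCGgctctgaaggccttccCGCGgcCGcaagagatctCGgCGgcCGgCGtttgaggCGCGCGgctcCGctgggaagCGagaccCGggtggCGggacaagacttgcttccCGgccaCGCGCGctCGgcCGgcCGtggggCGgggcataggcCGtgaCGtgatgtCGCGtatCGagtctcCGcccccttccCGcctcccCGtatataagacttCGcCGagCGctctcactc
KITLG: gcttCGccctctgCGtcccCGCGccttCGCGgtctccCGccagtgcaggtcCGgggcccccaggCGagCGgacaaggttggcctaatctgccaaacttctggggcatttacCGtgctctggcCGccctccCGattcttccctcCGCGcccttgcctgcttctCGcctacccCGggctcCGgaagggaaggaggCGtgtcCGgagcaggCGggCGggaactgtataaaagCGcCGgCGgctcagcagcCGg
These are chrX:66639270-66639519 on the minus strand with 6 CpG, chr4:52051054-52051303 on the plus strand with 11, chr5:58460087-58460336 on the minus strand with 37 and chr12:88580472-88580721 on the minus strand with 26. Methylation was not measured in these samples. A p53 decamer was found in windows of 3 genes that rose (PLK2, AEN and FAS) and of 5 that were not called (DDB2, RPS27L, SESN1, EI24 and ABCA12). These were 3 of 19 windows (15.8%) and 5 of 29 windows (17.2%), so the shares were close, with no test made.

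**Figure D4:**
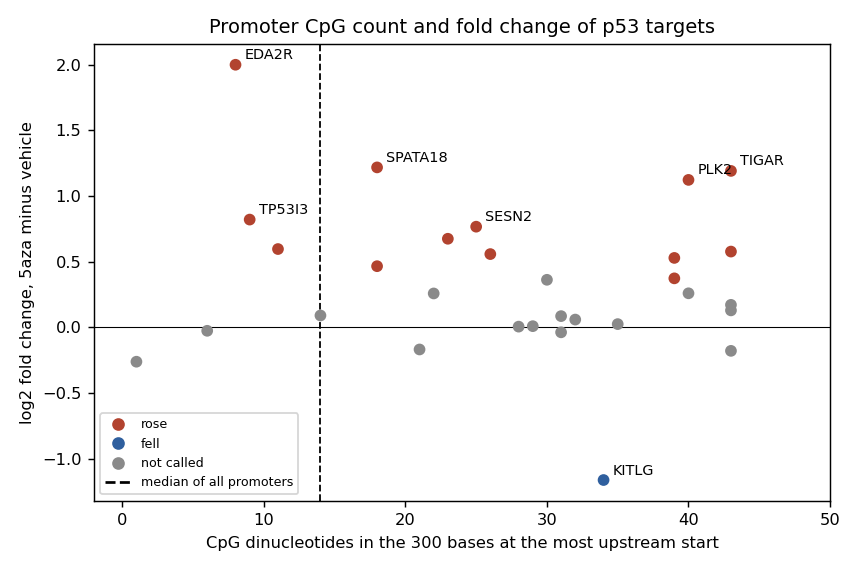
Each point is 1 of the 30 p53 targets with a promoter entry, placed by CpG dinucleotides in the 300 bases at its most upstream start and by log2 fold change (5aza minus vehicle). Genes that rose spread from 8 to 43 CpG and overlap those not called, and the dashed line marks the median of all promoters, 14.

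Other genes of the pathway gave a mixed picture. Of 24 measured regulators of p53 and its relatives, 3 rose and 5 fell, against 12.4% and 15.6% of all genes. Of 3 listed acetyltransferases of p53, 2 were higher in treated cells and 1 was lower. CREBBP rose 1.55-fold (log2 fold change 0.63, SE 0.12, adjusted p = 0.0106) and EP300 1.53-fold (0.61, SE 0.12, adjusted p = 0.00997), while KAT5 was 1.45-fold lower (-0.54, SE 0.12, adjusted p = 0.0159). PML, the scaffold of nuclear bodies, rose 1.51-fold (adjusted p = 0.0176). The checkpoint kinase CHEK1 was 1.67-fold lower, with levels of 9.45 and 9.12 in 5aza arrays, against 10.05 and 10.00 in vehicle arrays (adjusted p = 0.00985). TP73, a p53 relative, was 1.55-fold lower (adjusted p = 0.0157). CHEK2 (log2 fold change -0.79) and PRKDC (-0.46) complete the falls and are named outside the rule, with their values known. MDM4, the partner of MDM2, was not called (log2 fold change -0.21, adjusted p = 0.306).
None of the 8 regulator calls held without vehicle replicate 1 in limma's test, where an unadjusted p under 0.05 was reached by 3 regulators upward and 4 downward. Without vehicle replicate 2, 1 regulator rose (4.2%) and 2 fell (8.3%), against 7.43% and 6.89% of all genes in that fit. Without 5aza replicate 1, 3 rose (12.5%) and 8 fell (33.3%), against 14.1% and 18.9% of all genes. Without 5aza replicate 2, 4 rose (16.7%) and 3 fell (12.5%), against 12.4% and 14.6% of all genes, so rises then outnumbered falls among the regulators.

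Of 52 further established targets measured, 10 rose (19.2%) and 6 fell (11.5%), against 12.4% and 15.6% of all genes. CDKN1A, the cyclin-dependent kinase inhibitor p21, had levels of 11.05 and 11.36 in 5aza arrays, against 10.43 and 10.42 in vehicle arrays, and rose 1.72-fold (log2 fold change 0.78, SE 0.14, adjusted p = 0.00729). PMAIP1, the death-promoting protein NOXA, rose 1.6-fold (adjusted p = 0.00639). BBC3, which encodes the death-promoting protein PUMA, had a log2 fold change of 0.22 (adjusted p = 0.213), and BAX, a pore-forming member of the same family, one of -0.11 (adjusted p = 0.547). Neither was called. The 6 calls of smallest p-value were those of PMAIP1, SLC12A4, a potassium-chloride cotransporter (2.0-fold higher), SERPINB5, the serpin maspin (1.84-fold higher), BTG1, an antiproliferative protein (1.73-fold higher), TNFSF9, a costimulatory ligand of T cells (1.56-fold higher), and STEAP3, a metalloreductase (1.79-fold lower). CDKN1A kept its call in all 10 alternative fits, whereas PMAIP1 and TNFSF9 were not called in the fit without vehicle replicate 1 or in that without vehicle replicate 2. Each of these 2 fits gave 4 rises (7.7%) and 1 fall (1.9%) among the 52 targets. All genes gave 7.06% rises and 6.66% falls without vehicle replicate 1, and 7.43% rises and 6.89% falls without vehicle replicate 2, so the share of rises in this list was then near that of all genes.

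Replicate arrays were close to each other. Pearson's correlation over 33297 probe sets, which are not independent replicates, was 0.992 between 5aza arrays and 0.995 between vehicle arrays, and 0.966 to 0.971 between arrays of different groups. The epithelial markers KRT8, KRT18, EPCAM and CDH1 were bright in every array, with levels between 10.14 and 13.33, while VIL1 was between 4.22 and 4.79. Of 8 epithelial markers 1 rose (12.5%) and 3 fell (37.5%), against 12.4% and 15.6% of all genes. The adhesion molecule EPCAM was 1.64-fold lower (adjusted p = 0.00495), the tight-junction proteins CLDN4 and CLDN3 were 1.89-fold lower (adjusted p = 0.00205) and 1.68-fold lower (adjusted p = 0.00398), and the keratin KRT18 rose 1.36-fold (adjusted p = 0.033). Of 15 fibroblast, endothelial and leukocyte markers 4 rose (26.7%) and 1 fell (6.7%), against 12.4% and 15.6% of all genes, with a list mean of 4.61 and 4.59 in 5aza arrays, against 4.21 and 4.31 in vehicle arrays. The endothelial marker PECAM1 rose 3.46-fold (adjusted p = 0.00147), the leukocyte markers CD14 and CD3E rose 2.27-fold (adjusted p = 0.000981) and 1.89-fold (adjusted p = 0.0163), the fibroblast marker COL1A1 rose 1.54-fold (adjusted p = 0.0151), and the endothelial marker KDR was 1.46-fold lower (adjusted p = 0.0233). Vehicle levels were low on this scale for PECAM1 (4.94 and 5.24), CD14 (4.42 and 4.47), CD3E (3.86 and 4.16) and KDR (4.29 and 4.52). Whether they lay above background was not determined, and only 2 of the 15 markers passed the filter on dim genes. The leukocyte marker PTPRC was not called (adjusted p = 0.604), with levels between 2.93 and 3.20. These marker genes were picked for naming with their values known. Their part in the changes of p53 targets was not tested. In bulk RNA, more cells with a transcript and more transcript per cell cannot be told apart.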

How the data were processed

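The deposited table holds log2 levels that the authors obtained in Affymetrix Expression Console by RMA (background correction, quantile normalization and probe summary), per the submitters' processing notes. Software versions and genome build: not given in the sources used here. Quantile normalization hides changes of total RNA per cell, and folds of dim genes are usually compressed. The number of arrays limits the precision. The platform annotation gave 1 symbol for 19181 probe sets, several for 2055, and did not list 12061 of 33297. Each of 17958 genes was represented by its probe set of highest mean over 4 arrays; each of the 35 targets had a single one. The comparison used lmFit and eBayes of limma 3.58.1 (R 4.3.3) without covariates, two-sided, with Benjamini-Hochberg adjustment over all genes and a threshold of 0.05; intervals are 95% from the moderated SE. With 2 arrays against 2, an exact permutation test cannot go below 0.333. The fit was tested on simulated data, in runs with fewer changed genes than were called here. It recovered 1.49% of log2 changes of 0.5, 69.9% of changes of 1 and 98.2% of changes of 2. The share of false calls was 5.37%. Those rates need not hold for these data, where more genes were called. A missing call alone still does not exclude a log2 change of about 0.5. The 95% interval of FBXW7, which was not called, ran from -0.15 to 0.87. Members, role classes and lists were chosen with earlier results of these data known. All 38 targets are named; array values are given for called ones and for MDM2, FAS, GADD45A and DDB2, and of each pathway list up to 6 called genes by smallest p-value plus MDM4, CDKN1A, BAX and BBC3; array values of further targets were added after their values were seen. Alternatives were the replicate block, housekeeping centring, repeated quantile normalization, a filter on dim genes, averaging probe sets, a trended robust prior and leaving out each array.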

Additional observations from a re-analysis of the deposited data

How the results depend on the processing

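The 16 rises and 1 fall among the p53 targets were called alike with housekeeping centring and with a trended robust prior. They were also called alike with all probe sets averaged. Each target had a single probe set, so averaging could not change its levels and says nothing about these calls. Repeating quantile normalization gave 16 rises (45.7%) and 2 falls (5.71%), the added one being ABCA12, against 12.7% and 16.2% of all genes. The filter on the dimmest 33.3% of genes removed EDA2R and ABCA12. It left 15 rises (45.5%) and 1 fall (3.03%), against 14.1% and 23.1% of all genes. Leaving out 1 array gave 6 to 16 rises and 1 fall in each fit among the targets, 1267 to 2530 rises and 1196 to 3401 falls among all genes, 0 to 4 rises and 0 to 8 falls among p53 regulators, and 4 to 12 rises and 1 to 8 falls among the further targets. Fewer arrays enter those fits. Of the 17 called targets 6 kept their call in every setting run and 17 in every setting that kept all 4 arrays, except that EDA2R was not tested under the filter on dim genes. The median log2 fold change of the targets ran from 0.11 without 5aza replicate 1 to 0.40 without vehicle replicate 1. Housekeeping centring moved the median of all genes by 0.07. Of all genes 14.5% then rose and 12.4% fell, so falls no longer outnumbered rises. With a trended robust prior 12.8% of all genes rose and 16.5% fell. The labels do not say that replicate numbers pair arrays, and the deviations of same-numbered arrays correlated at 0.27. With the replicate block 16 targets rose (45.7%) and 1 fell (2.86%), against 15.6% and 21.3% of all genes.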
